A study of Mus musculus with 2 samples.

Results

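Single-exon antisense transcript models are stretches of the genome, each covered by long RNA reads without a splice junction, that lie on the strand opposite an annotated gene. They were taken from the transcript tables of 2 long-read RNA libraries of mouse gastrocnemius, the large calf muscle. The rule kept models that the authors' software, TALON, placed in its Antisense class with 1 exon on chromosomes 1 to 19, and left spike-ins out. Replicate 1 held 5285 such models of 85714 in all, and replicate 2 held 9966 of 92049. The mice were female, of the hybrid strain B6CASTF1/J, and 2 months old. Each library was made from 2 µg of total RNA, replicate 1 from animal 3 and replicate 2 from animal 4. Neither animal carried a transgene or a treatment in the labels, and although the animal numbers differ, 1 donor identifier is shared by the labels of both libraries. The libraries held 1349298 and 1359923 reads.

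Natural antisense transcripts are copied from the strand opposite a gene. Known kinds start near the gene's own promoter and run away from it, overlap its last exon from a neighbouring gene, or start inside an intron. Some act on the gene they overlap, and for most no role is known. A long read is normally oriented by its poly(A) tail or its splice sites. An unspliced read has no splice site to show its strand.

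The ends of these models are shown first, since the bases around them differ from the rest of the host exons. The host is the annotated gene on the other strand. Each line gives the last 10 bases of the model in lower case and the next 20 bases of the genome in capitals, 5′ to 3′ on the antisense strand. They were read from GENCODE M21 transcripts on mouse build mm10, as the reverse complement of host exons. The first 7 are examples in which an A-rich run, at least 12 A among the 20 bases, follows the end, and 3 well-read loci without such a run stand after them. Of the named loci, 30 had bases that could be read past the main model of both libraries, and 15 of these had such a run in both.
Pitpnc1, chr11:107211754-107211783, plus strand: acaccttaccAAAAAAAAAAAAAAAAGTTT
Mn1, chr5:111454896-111454925, minus strand: acctagacccAAAAAGAAAAAAAAAAAAAA
Tmem170b, chr13:41637378-41637407, minus strand: ttctttcaccAAAAAAAAAAAAAAAAAAAA
Sdc4, chr2:164425125-164425154, plus strand: acggagcattAAAAAAAAAAAAAAAAAAAA
Spry2, chr14:105892586-105892615, plus strand: cacatggaccAAAAAAAAAAAAAAAAAAAA
Qk, chr17:10212392-10212421, plus strand: tctttcaattAAAAACAAAACACAAAAGAA
Ak1, chr2:32634193-32634222, minus strand: gagatgctgtCTTAAAAAAAAAAAAAAAGA
Tmem250-ps, chr2:26138374-26138403, plus strand: ggtgggccctCACATGTCCACAAAGACCAT
Cnnm4, chr1:36506682-36506711, minus strand: gcaggatatcTACCTGCACCCCTTCTAGCC
Zbtb38, chr9:96685414-96685443, plus strand: gatttctaacTGTTGTTGTCACTCAAAGGA

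For 2 further loci the last 30 bases inside the model are shown. Capitals mark a poly(A) signal hexamer opposite Klhl31 and the longest run of A opposite Ptp4a2. The hexamer, ATTAAA, sits 23 bases before the end of the Klhl31 model of replicate 2. The Ptp4a2 model of replicate 2 ends on a run of 13 A, so the run lies before the model's end and not after it.
Klhl31, chr9:77656523-77656552, minus strand: aATTAAAtgacaggaaactgttccttttct
Ptp4a2, chr4:129839151-129839180, minus strand: gaatacgcttgcaatttAAAAAAAAAAAAA

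The window of 20 bases past the end could be read where it lay wholly in exons of the host, which held for 1106 models in replicate 1 and 2208 in replicate 2. At least 12 of the 20 bases were A for 379 models, or 34.3% (95% Wilson interval 31.5% to 37.1%), in replicate 1. In replicate 2 this held for 886 models, or 40.1% (38.1% to 42.2%). Of all windows of 20 bases in the exons of the same hosts on the same strand, 2.34% and 2.38% were that rich in A. The mean over libraries was 37.2% ± 4.14 (SD, n = 2). All 20 bases were A past 63 models in replicate 1 and 112 in replicate 2.

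In replicate 1 the share was 29.0% of models with 1 read, 38.3% with 2 to 9 reads and 60.3% of 78 models with 10 or more. In replicate 2 the same classes gave 34.8%, 45.1% and 51.2%. The share was 51.6% and 56.8% opposite a 3′ UTR without coding exon, against 11.6% and 12.4% of models opposite a coding exon. Unspliced models of the Genomic class lie on the sense strand of annotated genes. Those in the same host genes gave 11.4% (9.35% to 13.8%) of 772 models in replicate 1 and 10.4% (8.51% to 12.6%) of 847 in replicate 2. The intervals of antisense and sense models do not meet in either library, and they cover counting error only. No background was counted on the sense strand, and the sense and antisense models were not matched by place in the host. Models opposite introns could not be read in this way. What part the A-rich stretches have in how these reads arose was not tested.

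**Figure D1:**
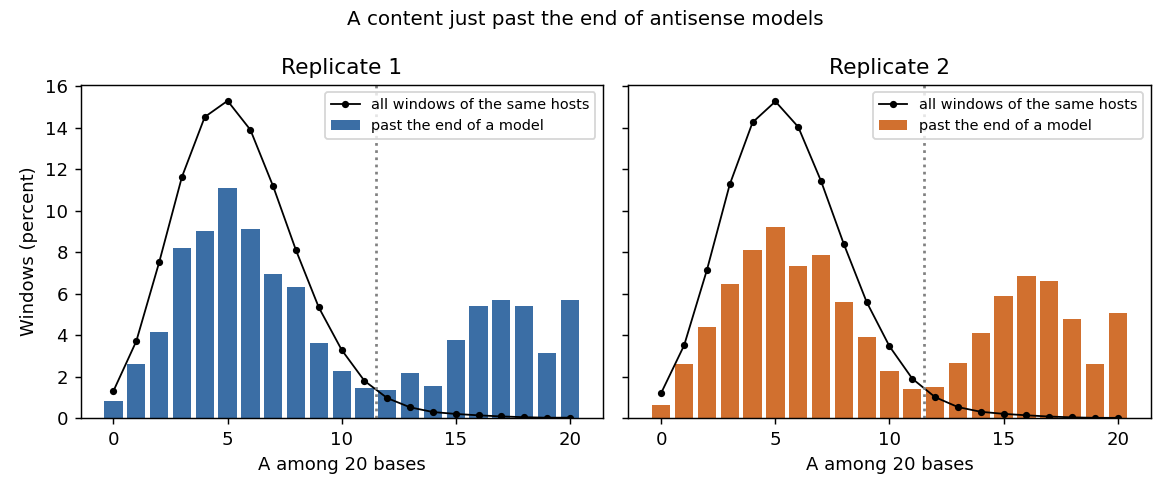
Number of A among the 20 bases past the 3′ end of each antisense model (bars, percent of models whose window lies in host exons) and in all windows of 20 bases of the same hosts' exons on that strand (black line), for each library. The bars have a second peak from 15 to 20 A, where the line lies near 0, and the dotted line marks the threshold of 12.

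A poly(A) signal, AATAAA or ATTAAA, was searched on the model's strand in the last 50 bases of the model where those lay in host exons. It was there in 81 of 734 models in replicate 1 and 168 of 1521 in replicate 2. These are 11.04% and 11.05% of the models, and a mean of 6.05% and 6.32% of all windows of 50 bases in the exons of the same hosts on that strand held either hexamer. Among models followed by an A-rich stretch 9.12% and 9.06% held it, and among the others 13.0% and 13.7%. A match is a run of letters and does not show that the site was used.

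The antisense models took 14736 reads in replicate 1, 1.09% of the library (95% Wilson interval 1.07% to 1.11%), and 38305 reads in replicate 2, 2.82% (2.79% to 2.84%). The mean was 1.95% ± 1.22 (SD, n = 2). Scaled to library size the class was 2.58-fold higher in replicate 2 (interval 2.53 to 2.63 from the read split). Of the models, 69.7% in replicate 1 and 63.1% in replicate 2 rested on 1 read. The median length was 1689 bases in replicate 1 and 1343 in replicate 2. Models on the plus and minus strands were about equally frequent, 2633 and 2652 in replicate 1.

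Other classes moved less between the libraries. Unspliced intergenic models, which lie in no annotated gene, were 2.05-fold higher in replicate 2 (1.95 to 2.16). Spliced antisense models were far fewer, 417 and 541, and 1.36-fold higher (1.22 to 1.51). The Genomic class of annotated genes was also 1.36-fold higher (1.34 to 1.38), and unspliced annotated transcripts had a ratio of 0.93 (0.92 to 0.95). Spliced annotated transcripts had a ratio of 0.99 and held 59.8% and 59.3% of the reads. These intervals describe the 2 libraries and not animals, and what set the libraries apart was not tested.

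**Figure D2:**
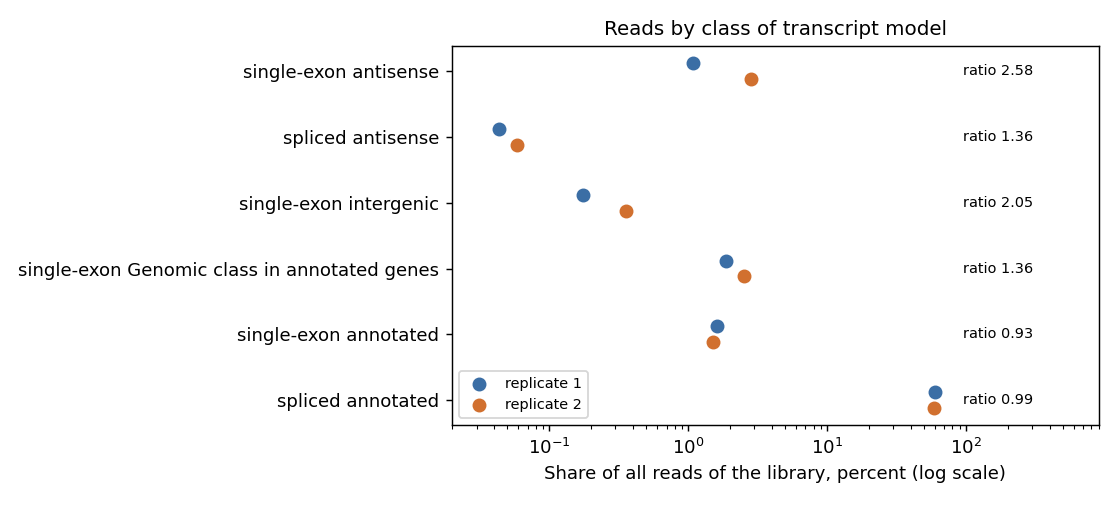
Share of all reads of each library by class of transcript model on chromosomes 1 to 19 (log scale), with the ratio of replicate 2 to replicate 1 printed at the right. Single-exon antisense models have the widest gap of the 6 classes drawn, 1.09% against 2.82%.

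The spike-ins allowed a check of strand by the class of the model. Ambion mix 1 spike-ins are synthetic RNAs of known sequence, and they took 49103 and 20235 reads. Of the species with reads outside the Antisense class, 55 in replicate 1 and 44 in replicate 2, none had a read in that class. Their reads came to 48695 and 20086, so a count of 0 allows up to 0.00616% and 0.0149% in the Antisense class. The strand of reads in other classes was not compared with the annotation. A further 5 and 4 species had all their reads, 408 and 149, on the other strand. The spike-ins are unspliced and short, and reads of muscle transcripts of other lengths were not checked by them.

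Models of both libraries that overlapped by at least 1 base on the same strand were joined into 12139 loci, of which 9282 held 1 model. A read in both libraries was found in 2780 loci, 22.9% (95% Wilson interval 22.2% to 23.7%). These shared loci were 53.5% of the 5197 loci of replicate 1 and 28.6% of the 9722 loci of replicate 2, and they held 78.9% and 72.4% of the antisense reads. Loci of 1 library had a median of 1 read and shared loci a median of 4. Of the 610 loci with at least 10 reads, 575 had reads in both libraries. No like shares are given for other classes of model, so these are not shown to be particular to antisense loci.

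In shared loci the 3′ ends agreed more closely than the starts. For the most read model of each library, the 3′ ends were at the same base in 63.4% of shared loci, and the starts in 24.6%. Within 10 bases the shares were 78.3% and 37.2%. The median distance was 0 bases for 3′ ends and 364.5 bases for starts. The same 3′ base was seen in 61.8% of 285 loci with an A-rich stretch past the end in replicate 1 and in 64.8% of 438 without one. Within 10 bases the order was the other way, with 77.2% of the loci with an A-rich stretch and 69.6% of those without. Neither difference was tested. Each library had its own set of models, and the sources used here do not say how the authors' software placed their ends.

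The most read locus lay at chr17:39843013-39846245 on the minus strand, opposite Gm26917, which the annotation lists without coding sequence. It held 1263 reads in replicate 1 and 5404 in replicate 2, or 936 and 3974 counts per megaread (CPM), and Gm26917 itself had 22 and 12 reads. Replicate 2 was 4.25-fold higher (3.99 to 4.51). An annotated ribosomal RNA gene, CT010467.1, ends 108 bases upstream on the same strand as the locus. Ribosomal RNA genes are repeated in the genome, so the copy from which these reads came is uncertain. Opposite CT010467.1 itself a locus at chr17:39846353-39846958 on the plus strand held 82 and 46 reads.

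Next came a locus of chr9:77656522-77660127 on the minus strand, opposite the 3′ UTR of Klhl31, a kelch protein of heart and skeletal muscle. It held 1449 reads in replicate 1 and 3984 in replicate 2, while Klhl31 on its own strand had 106 and 103 reads. Antisense reads thus outnumbered sense reads 13.7 to 1 and 38.7 to 1. The locus was 2.73-fold higher in replicate 2 (2.57 to 2.90), with an adjusted p of 2.14e-262 by Fisher's exact test over all features, and the sense reads of Klhl31 were of like number in both. The main model of replicate 2 started at the annotated end of Klhl31, and that of replicate 1 started 3011 bases further in. Their 3′ ends were 1 base apart, next to the hexamer shown above. These loci, opposite Gm26917 and Klhl31, held 18.4% and 24.5% of all antisense reads, and the 20 most read shared loci held 29.2% and 33.2%.

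Opposite Pitpnc1, a phosphatidylinositol transfer protein, 212 and 336 reads stood against 51 and 50 sense reads, and the model began at an annotated end of Pitpnc1 in both libraries. Nfia, a transcription factor, had 96 and 227 antisense reads at its largest locus against 10 and 10 sense reads. At Pitpnc1 and Nfia antisense reads were more than sense reads in both libraries, and replicate 2 had more of them.

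Ptp4a2, a protein tyrosine phosphatase, differed, with 83 and 256 antisense reads against 601 and 564 sense reads. The RNA-binding protein gene Qk had 24 and 152 antisense reads at its largest locus, and its own reads were 192 and 542. Msrb3, a methionine sulfoxide reductase, had 77 and 194 antisense and 101 and 129 sense reads. For Ptp4a2 and Qk the sense reads were the larger number in both libraries.

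Sdc4 encodes syndecan-4, a cell surface proteoglycan, and the locus at chr2:164421459-164425262 opposite its 3′ UTR held 25 and 186 reads against 12 and 8 sense reads. Opposite Mn1, a transcriptional regulator, the values were 48 and 182 against 30 and 43. The long noncoding RNAs Neat1, a scaffold of nuclear paraspeckles, and Malat1 had 44 and 179, and 6 and 60, antisense reads at their largest loci. Their sense reads were 49 and 167, and 16 and 20. A further Neat1 locus at chr19:5835612-5841883 had 18 and 33 antisense reads. Sense reads of Neat1 were more in replicate 2, as its antisense reads were, and those of Sdc4 were fewer.

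Further loci opposite 3′ UTRs had like patterns. Tmem170b, a membrane protein gene, had 69 and 132 antisense reads against 7 and 14 sense reads. Zbtb44, a zinc finger gene, had 37 and 117 against 20 and 26. Zbtb38, which encodes a protein that binds methylated DNA, had 58 and 92 against 5 and 3, and Scn4b had 43 and 121 against 63 and 50. Sense reads were fewer than antisense reads in both libraries opposite Tmem170b, Zbtb44 and Zbtb38, and opposite Scn4b in replicate 2.

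At a few well-read loci the libraries differed in where the model ended. Opposite 2900097C17Rik, a gene without coding sequence, 142 and 247 antisense reads stood against 172 and 170 sense reads. The models shared their start and ended 61 bases apart, with 20 A past the end in replicate 1 and 6 in replicate 2. The Sept2 models ended 106 bases apart. Opposite Pitpnc1, Ptp4a2, Mn1 and Tmem170b the 3′ ends were at the same base in both libraries.

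Septin genes had 2 loci among the 20 most read. Opposite Sept2 there were 119 and 146 reads, and opposite Sept11 there were 92 and 137. Sept2 did not pass the test between libraries, with a fold of 1.22 (0.956 to 1.55) and an adjusted p of 0.416 by Fisher's exact test. Cnnm4, of the family of magnesium transport proteins, had 84 and 69 antisense reads against 1 and 2 sense reads (fold 0.815, 0.594 to 1.12). Opposite Gm10874 there were 89 and 63 reads and no read of Gm10874 in either library. The levels of Sept2, Cnnm4 and Gm10874 did not pass the test between libraries, and the folds of Sept2 and Cnnm4 lay within counting error.

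Loci ranked by antisense reads per sense read, over both libraries and with at least 10 antisense reads, put Gm26917 first with 196. The locus opposite 1700027J07Rik followed with 93. Cnnm4 had 51, Spry2, an inhibitor of receptor tyrosine kinase signalling, had 40, Gm42732 had 27 and Klhl31 had 26.0. Loci whose host had no read in either library, such as those opposite Gm10874, CT010467.1 and Lncpint, have no such ratio and are not in this order. Spry2 had 14 and 66 antisense reads against 1 and 1 sense read. Hosts at the top of this order were read little themselves, so the ratio rests on few sense reads.

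Whether a locus took a different share of the 2 libraries was asked with Fisher's exact test, two-sided, on its reads, with Benjamini-Hochberg adjustment over all 10163 features with at least 10 reads. Of these features 10% passed a threshold of 0.05 in either direction, 6.03% higher and 3.97% lower in replicate 2. Of the 610 antisense loci 168 passed, 27.5%, with 160 (26.2%) higher and 8 (1.31%) lower in replicate 2. Among annotated genes 774 of 9341 passed, 8.29%, with 4.44% higher and 3.84% lower. Among other unannotated loci 47 of 174 passed, 27%, with 21.8% higher and 5.17% lower. The median log2 ratio of the 610 antisense loci was 1.20, and that of all features was 0.01. The 610 loci include those that reached 10 reads through replicate 2 alone. Over the 2780 loci with a read in both libraries, with no such minimum, the median was 0.50, with 1588 loci higher and 1192 lower in replicate 2. The test compares 2 libraries and not animals as a population, for which 2 animals cannot give a two-sided sign test p under 0.5.

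**Figure D3:**
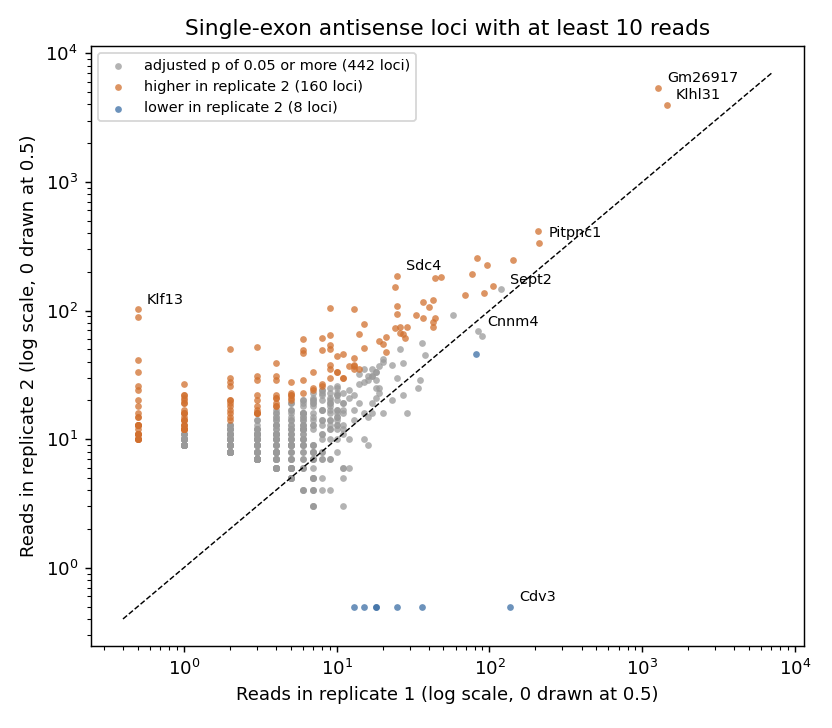
Reads of the 610 single-exon antisense loci with at least 10 reads in replicate 1 and replicate 2 (log scales, 0 drawn at 0.5). Most points lie above the dashed line of equal reads, 160 loci passed the test as higher in replicate 2 and 8 as lower, and the points on the lower edge are loci with no antisense model in replicate 2.

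With edgeR's exact test at a dispersion of 0.01, which allows some spread between animals, 115 loci passed, 108 higher and 7 lower, and 3.71% of all features did. Scaled to the antisense reads themselves without the 2 largest loci, 56 of 608 loci passed, 26 higher and 30 lower. The median log2 ratio was then 0.15, and no share over all features is given for this scaling. That scaling removes the difference that the class shares as a whole.

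Of the 8 loci called lower in replicate 2, 7 had no antisense model there but had unspliced reads of another class on the same strand. Opposite Cdv3, 137 reads in replicate 1 were antisense models and replicate 2 had none, but replicate 2 had 570 unspliced reads on the same strand over the locus in the Genomic class of an annotated gene. Tnnt3 encodes fast skeletal troponin T, and its locus went from 18 antisense reads to 336 reads of the Genomic class. The locus opposite Aff1 had 36 antisense reads in replicate 1 and 41 reads of the Genomic class in replicate 2.

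The reverse was seen at a locus opposite each of Klf13 and Zbtb16, both zinc finger transcription factors. The Klf13 locus at chr7:63921539-63923391 had 0 and 102 antisense reads, and with unspliced reads of every class 48 and 102. The Zbtb16 locus at chr9:48817544-48825854 had 0 and 89, which became 63 and 89. Other loci opposite these genes had antisense reads in both libraries. They held 10 and 25 reads at chr7:63884179-63887649 (Klf13), and 5 and 28 at chr9:48651780-48655810 and 5 and 7 at chr9:48713831-48716592 (Zbtb16). Of the 35 loci with at least 10 reads and an antisense model in 1 library alone, 12 had unspliced reads of another class in the other library and 23 had none. No like count is given for loci of other classes. Counted over every unspliced class, 162 loci passed, 161 higher and 1 lower in replicate 2, and 9.94% of all features did. The locus that stayed lower was the one opposite CT010467.1.

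Among loci with reads in both libraries the widest ratios were at low counts. Pdk4 had 3 and 52 reads at its largest locus, a fold of 17.2 (5.69 to 52.0) with an adjusted p of 1.16e-10 by Fisher's exact test, and sense reads of 704 and 1315. Msi2, an RNA-binding protein gene, had 2 and 50 antisense reads at its largest locus against 17 and 14 sense reads. Further loci opposite Msi2 had 17 and 16 reads at chr11:88347053-88348992 and 7 and 21 at chr11:88699820-88702293. Cd36 had 1 and 21 at its largest locus and Col1a1, the fibrillar collagen gene, 1 and 16. At Pdk4 sense and antisense reads were both more in replicate 2, and at the largest Msi2 locus the antisense reads alone were.

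Loci with no unspliced read of any class in replicate 1 were small. The largest, opposite Nucks1, had 0 and 41 reads. With replicate 1 set to a floor of 3 reads, replicate 2 was 13.6-fold higher, and the interval of the read split began at 10.6. Other loci opposite Nucks1 had 2 and 12 reads at chr1:131933568-131934185 and 3 and 7 at chr1:131934909-131935080. Opposite Furin, a proprotein convertase, 0 and 24 reads gave 7.94-fold against the same floor, and the interval began at 6.20. The Furin model is 1 base long as deposited, at chr7:80389669-80389669. Models of 1 base numbered 59 in replicate 1, with 102 reads, and 129 in replicate 2, with 472 reads. They include the main model of replicate 2 opposite Scn4b, a sodium channel subunit, with 121 reads. The sources used here do not say how such models arose.

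Nearly all models had an annotated host, since 39 and 62 had none, and 94.4% and 94.9% of those with a host lay opposite protein-coding genes. The hosts were 3513 genes in replicate 1 and 5240 in replicate 2. Models that touched no exon of the host made up 48.9% (47.5% to 50.2%) and 51.3% (50.3% to 52.3%) and held 28.8% and 27.2% of the antisense reads. Models over a coding exon made up 28.8% and 26.5%. Models over the 3′ UTR but no coding exon were 9.90% and 10.5% of models and held 28.8% and 30.7% of reads. Those over the 5′ UTR alone were 4.33% and 3.15%. Reads per model were 8.11 and 11.2 opposite 3′ UTRs, 13.0 and 23.0 opposite exons of hosts without coding sequence, and 1.64 and 2.04 in introns. The loci opposite Klhl31 and Gm26917 weighed on the first 2 of these values. Without them there were 5.36 and 7.40 reads per model opposite 3′ UTRs and 5.55 and 5.57 opposite exons of hosts without coding sequence.

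Exons covered 18.3% and 16.5% of the bases that the models shared with their hosts, and 7.40% and 7.70% of the bases of those hosts. A model overlapped an exon by at least 1 base in 49.2% ± 1.62 of cases (SD, n = 2), and by at least 50% of its length in 18.8%. The 3′ end of a host transcript was reached by 18.5% (17.5% to 19.6%) of models in replicate 1 and 17.7% (17.0% to 18.5%) in replicate 2. To reach meant to span an annotated transcript end or to start within 100 bases of one. These models held 30.5% and 45.8% of the reads, which became 26.9% and 28.2% without the loci opposite Gm26917 and Klhl31. A start at exactly an annotated transcript end was seen in 6.66% and 6.97% of models.

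**Figure D4:**
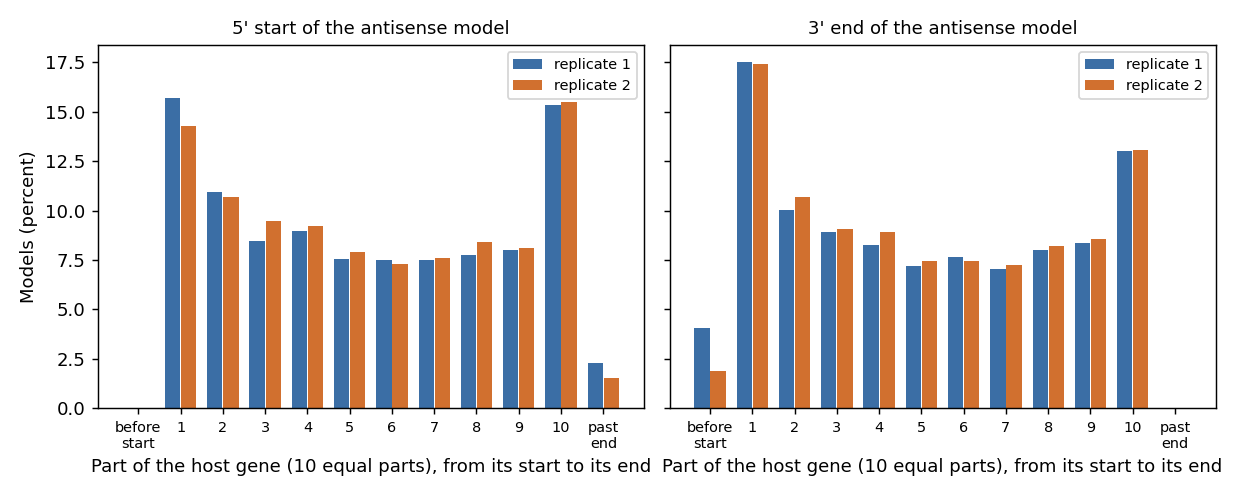
Position of the start and of the 3′ end of models along protein-coding hosts, in 10 equal parts of the host from its start to its end (bars, percent of 4952 models in replicate 1 and 9401 in replicate 2). Starts and ends are more frequent in the first and last parts than in the middle, and the libraries have the same shape.

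With protein-coding hosts cut into 10 equal parts, starts fell in part 1 in 15.7% and 14.3% of models and in part 10 in 15.3% and 15.5%, against 7.57% and 7.91% in part 5. A start within 500 bases of the start of any annotated host transcript was seen in 8.40% and 7.00%. This rule also counts starts of transcripts that begin inside the gene, so it does not measure head-to-head starts at the gene's own promoter. The most read of these loci lay opposite Actb, the cytoskeletal actin gene, with 44 and 88 reads, and opposite Dhrs3, a retinaldehyde reductase, with 33 and 93. Dhrs3 itself had 28 and 35 reads. The most read Actb model starts near the start of 1 annotated Actb transcript and at the end of another, so it meets both rules.

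A gene on the same strand ended within 5000 bases upstream of 9.37% and 7.85% of models. Only genes that lay wholly upstream of the model were counted, and within 10000 bases the mean share was 15.8%. Whether transcription ran on from such genes was not tested. A same-strand gene started within 5000 bases downstream of 10.3% and 9.98%. Models that also overlapped the body of a gene on their own strand were 71 and 119.

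The most read intronic locus lay opposite Lncpint, with 43 and 75 reads and no read of the annotated Lncpint RNA in either library. By reads over both libraries the locus opposite Klf13, described above, came next. Opposite Foxo1, a transcription factor of muscle atrophy and metabolism, 36 and 56 antisense reads stood against 27 and 60 sense reads. Its fold of 1.54 (1.02 to 2.34) had an adjusted p of 0.241 by Fisher's exact test. Foxo1 followed Klf13 in this order, and Zbtb16, described above, and Zbtb20 came after it. The locus in Zbtb20 had 28 and 61 reads against 28 and 31. Sense and antisense reads were of like size opposite Foxo1 in both libraries.

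Antisense models were more frequent opposite genes with more reads of their own, but antisense reads did not rise in proportion. Of protein-coding genes without a read, 2.33% and 3.47% had an antisense model, and of those with 10 to 99 reads 29.4% and 44.3%. Of the 97 and 121 genes with 1000 or more reads, 41.2% and 50.4% had one. Per 1000 sense reads there were 135 and 298 antisense reads opposite genes with 1 to 9 reads, 29.99 and 77.0 at 10 to 99 reads, and 9.65 and 26.5 from 100 to under 1000. At 1000 or more reads there were 0.236 and 0.801. The order of the classes was the same in both libraries, and replicate 2 was higher in each. The classes also differed in gene length. The median was 9.94 and 10.011 kb for genes without a read, 28.3 and 27.4 kb at 1 to 9 reads, and 13.3 and 12.9 kb at 1000 or more. Over genes with at least 10 reads, the correlation (rho) with the gene's own reads was 0.062 and 0.093. With gene length it was 0.401 and 0.483. The part of length in the trend over classes was not tested.

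**Figure D5:**
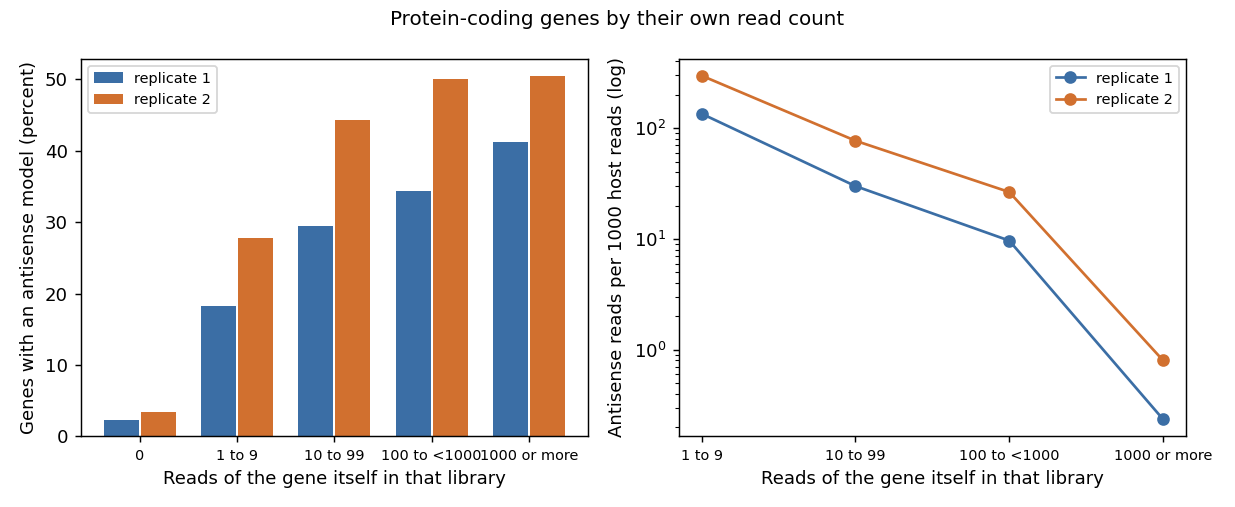
Protein-coding genes on chromosomes 1 to 19 grouped by their own reads in the library, and not matched by gene length. Left, percent of genes with an antisense model. Right, antisense reads per 1000 reads of the genes themselves (log scale), which fall from 135 and 298 in genes with 1 to 9 reads to 0.236 and 0.801 in genes with 1000 or more.

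Main transcripts of fast muscle are examples. Antisense reads are here those of single-exon models of the Antisense class, and reads of other classes on that strand were not counted. Acta1, skeletal actin, had 74992 and 68399 sense reads and no such antisense read in either library. For reads of that class this allows up to 0.004% and 0.00439% of its reads. Ckm, muscle creatine kinase, had 60801 and 66599 sense reads and 0 and 1 antisense reads. Atp2a1, the calcium pump of the sarcoplasmic reticulum, had 201493 and 194599 sense reads and 6 and 26 antisense reads. Among the 20 genes with the most reads, 13 had no antisense read in replicate 1 and 11 had none in replicate 2. The highest antisense share of these 20 was that of Ak1, adenylate kinase, with 8 and 49 antisense reads, or 0.139% and 0.746% of its own.

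The skeletal myosin heavy chain genes Myh1, Myh2 and Myh4 lie in 1 cluster on chromosome 11, and antisense RNA within it is known. Opposite Myh4, the fast IIb chain, all single-exon antisense models held 4 and 49 reads against 12708 and 16318 sense reads, and the largest locus, in an intron, held 4 and 31. Opposite Myh2 a locus held 0 and 2 reads, and opposite Myh1 one held 1 and 0. No locus lay opposite Myh7 or Myh6.

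The host lists, chosen with earlier results known, are described by counts beside all protein-coding genes. Of all these genes 15.6% and 23.1% were hosts, with 9.84 and 24.4 antisense reads per 1000 sense reads. They include 8940 and 9127 genes without a read, and the lists were not matched to genes of like read count or length. Of genes with 100 to 999 reads 34.4% and 50.1% were hosts. Both the share of hosts and the ratio per 1000 changed with read count, as given above. Of 49 genes of the contractile apparatus and Z-disc, 18 and 28 were hosts, with 0.5002 and 1.49 antisense reads per 1000. Titin, Ttn, led with 25 and 59 antisense reads against 381 and 471. Of 10 tested loci of the list 5 passed as higher in replicate 2 and 2 as lower, those of Tnnt3 and of Ttn at chr2:76840313-76843492, and both lower calls were lost when unspliced reads of every class were counted. Over all antisense loci 26.2% passed as higher and 1.31% as lower, and over all features 6.03% and 3.97%. Of 25 genes of calcium handling, 9 and 17 were hosts, with 0.227 and 0.530 per 1000, led by Atp2a1 and by Pvalb, the calcium buffer parvalbumin, with 11 and 20.

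Of 25 genes of glycolysis, glycogen and creatine kinase, 11 and 16 were hosts, with 0.338 and 0.956 per 1000. Of 42 genes of oxidative phosphorylation and the citric acid cycle, 14 and 21 were hosts, led by Vdac1, a channel of the outer mitochondrial membrane, with 9 and 21 antisense reads. Of 20 genes of fatty acid use, 10 and 12 were hosts, with 2.43 and 12.5 per 1000. Pdk4, the kinase that holds back pyruvate oxidation, had 5 and 55 antisense reads against 704 and 1315 sense reads, and Cd36, the fatty acid transporter, had 2 and 26 against 155 and 173. Of the 4 tested loci of this list 3 passed as higher in replicate 2, where 26.2% of antisense loci and 6.03% of all features did.

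Of 29 circadian and transcription regulators, 17 and 15 were hosts, with 92.1 and 146 antisense reads per 1000 sense reads. Foxo1 led with 40 and 78. Of 15 tested loci of that list 2 passed as higher and none as lower, with a median log2 ratio of 0.93. Over all antisense loci the share called higher was 26.2% and the median 1.20, and over all features 6.03% and 0.01. Of 22 genes of cytosolic ribosome and translation, 2 and 5 were hosts, and of 19 of extracellular matrix and fibroblasts, 5 and 8. Of 25 fat, nerve, endothelial and blood genes, 3 and 4 were hosts, with 9 and 6 antisense reads in all.

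Muscle markers took 29.1% and 28.8% of the reads. Adipocyte markers were at 0.111% and 0.0107% and nerve and Schwann cell markers at 0.0623% and 0.00882%, with all 5 adipocyte genes read in both libraries and 5 and 4 of the 5 nerve genes. Both lists thus had fewer reads in the library with the higher antisense share. Leukocyte markers (0.00815% and 0.00404%), smooth muscle markers (0.0116% and 0.00522%) and endothelial markers (0.00526% and 0.00419%) were also lower there, at few reads. Fibroblast markers were at 0.176% and 0.167%, and erythroid markers, at 0.0107% and 0.0124%, were higher. The part of these cell types in the antisense difference was not tested. In tissue RNA, fewer cells of a type and less RNA per cell cannot be told apart.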

How the data were processed

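Long-read RNA libraries of gastrocnemius from 2 mice, 1 library per animal, were compared. Per the deposited tables, the authors gave raw counts, the number of reads per transcript model, without normalization, from TALON. The labels name build mm10, and GENCODE M21 was used as the annotation here. The sources used here do not give the aligner, read filters or platform. Depth was 1349298 and 1359923 reads.

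Models were joined by same-strand overlap of at least 1 base, and hosts were taken from GENCODE M21. Levels are counts per megaread (CPM) of the library, and log2 ratios used a pseudocount of 1 CPM. Fisher's exact test (scipy 1.17.1) compared libraries. Shares carry 95% Wilson intervals, folds the interval of the read split, both for counting error only. edgeR 4.0.16 gave an alternative. The test was checked on simulated data. Bases were read from GENCODE M21 transcripts.

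The named loci were the 20 most read in both libraries, the 10 largest ratios each way among those past the threshold, the 10 with most antisense per host read, the 5 most read without exon overlap, the 5 most read near a host start, up to 2 hosts per list, and myosin heavy chains. Some loci that this rule picked are not reported here. Members and lists were chosen with earlier results of these data known. The A-rich analysis, the class-wide counts, the values without the most read loci and the scaling to antisense reads were added after seeing the data.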

Additional observations from a re-analysis of the deposited data

Results flagged for a closer look

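Reads on the strand opposite the annotation were also found outside chromosomes 1 to 19. On the other strand of Ambion spike-ins there were 408 reads in replicate 1 and 149 in replicate 2, from 5 and 4 species that had no read on their annotated strand, nearly all from 4 species in both libraries. Single-exon antisense models on chromosome X held 166 and 458 reads, 0.988% and 2.66% of the reads on that chromosome. On the mitochondrial chromosome such models held 27 and 56 reads, 1.14% and 1.66% of its reads. All of these counts lie above the 3 counts that a count of 0 allows. The chromosome X and mitochondrial shares were higher in replicate 2, and these differences were not tested.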

How the results depend on the processing

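Other read minimums, library totals, a 50% overlap and every unspliced class gave 119 to 174 loci past the threshold against 168 of 610. The number tested changed with the minimum, and 156 of 1487 passed at 5 reads and 119 of 249 at 20. Shares over all features at these minimums are not given here. With edgeR 115 of 610 passed, and scaled to antisense reads 56 of 608. The share of loci read in both libraries was 22.1% with 50% overlap, 25.6% for models with at least 2 reads and 24.6% with every unspliced class. Models with at least 2 reads formed 4115 loci, and single libraries formed 5228 to 9780. Exon overlap was 18.8% at 50% of the length, 46.4% for protein-coding hosts and 55.2% for at least 2 reads, and 48.1% to 50.4% by library. The share at the host end was 17.4% with a window of 0, 20.4% with 500 and 22.3% for at least 2 reads, and 17.7% to 18.5% by library. A same-strand gene end upstream was found for 1.84% within 1000 bases and 15.8% within 10000, and 7.85% to 9.37% by library. Starts within 1000 bases of a host transcript start were 11.9%, and 7.00% to 8.40% by library at 500. Median length was 1954.5 for at least 2 reads and 2284 weighted by reads, and 1343 to 1689 by library. A-rich ends were 30.5% at 15 A and 44.3% for at least 2 reads, and 34.3% to 40.1% by library. The share of reads was 1.09% to 2.82% by library.

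With unspliced reads of every class the log2 ratio turned at 5 named loci, to 0.64 at the chromosome 3 locus without a host, 0.17 opposite Aff1, 4.11 opposite Tnnt3, 1.29 opposite 9430091E24Rik and 2.03 opposite Cdv3. The alternative itself adds the reads of other classes. Scaled to antisense reads it turned at 17, to -0.97 opposite Sept2, -0.60 Pitpnc1, -0.043 Vdac1, -0.33 Tmem170b, -0.48 Pvalb, -0.63 Pfkm, -0.14 Zbtb20, -0.71 Tmem250-ps, -0.47 2900097C17Rik, -0.63 Foxo1, -0.024 Nfia, -0.27 Actb, -1.16 Gm42732, -0.69 Sept11, -0.46 Lncpint, -0.27 BC024978 and -0.60 Zbtb38. No named locus turned under either pseudocount, edgeR, the read minimums or the other library sizes.

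No paired analysis was possible because the libraries form 1 group, with no second group to pair. Depth limits the loci, since 69.7% and 63.1% of models rest on 1 read. The left-out library leaves 1 animal, with no test.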
